A study of Mus musculus with 8 samples.

Results

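Collagen chain genes encode the building blocks of collagens, the main structural proteins of connective tissue and of basement membranes. They were taken here as all listed gene symbols made of Col, a type number, the letter a and a chain number, which gave 44 genes of 31053 symbols. Each had at least 1 unique molecular identifier (UMI, the tag that marks 1 captured transcript) in the 8 libraries, and together they held 1049069 UMIs. The genes were counted in single cells of the mouse colonic lamina propria, the connective tissue under the gut epithelium, by droplet sequencing of transcript 3′ ends. Because 1 tag stands for 1 transcript end whatever its length, transcript length does not enter comparisons between genes. Other differences in capture between genes were not checked, so rankings of genes below are rankings of tag counts.

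All mice were C57BL/6, 10 to 12 weeks old and kept pathogen-free on a normal diet. Wildtype (WT) and mutant mice were each studied without treatment and after DSS, with 2 libraries per group that the series text calls independent biological replicates. DSS is dextran sulfate sodium, a polymer toxic to colonic epithelium, and was given at 2% in the drinking water for 7 days, followed by 3 days of regular water. Untreated mice drank regular water for 10 days, and all mice were taken on day 10. The mutant carries a substitution in RORgt, a transcription factor of interleukin-17-producing lymphocytes. Sample titles name it S203AKI and the series text names it RORgtS182A, and S203AKI is used below. The tissue was digested with collagenase, DNase and dispase, and CD4+ T cells were enriched with a magnetic kit before about 10000 cells were loaded. Stromal cells were not the target of that enrichment, and their shares are descriptive.

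Collagens differ in the assemblies they build. Fibril-forming chains such as those of types I, III and V make the tensile cables of connective tissue, and fibril-associated chains such as types XII and XIV decorate them. Type IV chains form the sheet-like network of basement membranes, type VI chains form beaded filaments around cells, and types XV and XVIII carry heparan or chondroitin sulfate at basement membranes. Type VII anchors epithelial basement membrane to the stroma, and transmembrane types XIII, XVII and XXIII sit in cell surfaces. In the gut wall fibroblasts are known as the main makers of fibrillar collagen, while endothelium, pericytes, smooth muscle and glia lay down basement membranes of their own.

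The libraries held 34497509 to 46960005 UMIs each, and 96721 of 100673 barcodes passed the limits on genes and mitochondrial UMIs. Any pair of libraries shared between 21 and 64 barcode sequences. Untreated S203AKI library 1 alone held a cluster of 53 barcodes led by Svs5 and Svs4, genes of the seminal vesicle, and DSS WT library 2 alone held 73 barcodes of an unnamed cluster led by Krt14. Both stayed outside the classes described below. Fibroblast-like barcodes numbered 5758 and made up 6.52% to 12.9% of barcodes in untreated and 1.04% to 4.78% in DSS libraries. Their median depth was 3352 to 4720 UMIs in untreated and 4644 to 5981 in DSS libraries. The share of fibroblast-like barcodes with a Cd4 UMI was 0.976% to 1.24% in untreated and 3.7% to 7.08% in DSS libraries. The part of depth and of carried-over RNA in the differences below was not tested.

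Pooled over libraries, fibroblast-like barcodes held 46.5% of all collagen UMIs in 5.95% of barcodes, and all 12 markers of the fibroblast list were detected in them. Stromal clusters that also carried leukocyte genes held 39% and were kept apart as leukocyte-mixed, at 3.79% to 8.63% of barcodes in untreated and 1.35% to 5.33% in DSS libraries. In DSS WT library 1 and both DSS S203AKI libraries the leukocyte-mixed barcodes held more of the library's collagen UMIs (43.1%, 48.1% and 51.6%) than the fibroblast-like ones (36.9%, 37.7% and 35.4%). Endothelial-like barcodes held 5.24%, unnamed clusters 5.84%, mural-like barcodes (pericytes and smooth muscle) 1.2%, glial-like barcodes 0.652% and squamous-like barcodes 0.341%. T cell-like barcodes made up 61.4% of all barcodes and held 0.453% of the collagen UMIs.

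Levels are given as CPM, the counts of a gene per 1000000 UMIs of the class in a library. Summed over the 44 genes, fibroblast-like barcodes held 16415 ± 754 CPM (SD, n = 4) in untreated and 20933 ± 3656 CPM (n = 4) in DSS libraries. The ranges overlapped, at 15478 to 17324 and 16418 to 24144 CPM. Glial-like barcodes held 6767 ± 830.5 CPM (n = 4) and 7014 ± 1231 CPM (n = 2), and endothelial-like barcodes 4528 ± 384.9 and 5095 ± 417.3 CPM (n = 4 each). Mural-like barcodes held 3292 ± 593.9 CPM (n = 3) and 6943 ± 2398 CPM (n = 4). Their ranges, 2668 to 3851 and 4732 to 9953 CPM, did not overlap. Macrophage-like barcodes held 63.84 ± 21.55 and 71.83 ± 14.2 CPM, and T cell-like barcodes 27.1 ± 7.527 and 36.63 ± 17.38 CPM (n = 4 each). Both lay far below the fibroblast-like, glial-like and endothelial-like sums. Neutrophil-like barcodes, only 190 in all, ranged from 0 to 1611 CPM between libraries.

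The leading chains differed between some classes and were shared by others. Over all libraries used, Col3a1 had the highest mean in fibroblast-like, macrophage-like and T cell-like barcodes, and Col4a1 in endothelial-like and mural-like ones. In mural-like barcodes this order came from the DSS libraries, with Col4a1 at 1688 ± 580.2 and Col3a1 at 945.8 ± 624.9 CPM (n = 4). In untreated mural-like libraries Col3a1 stood at 774.1 ± 226 and Col4a1 at 625.1 ± 54.17 CPM (n = 3). In fibroblast-like barcodes Col3a1, the chain of type III fibrils, stood at 5048 ± 361.4 CPM (SD, n = 4) in untreated libraries, ahead of the type I chains Col1a2 at 2882 ± 207.4 and Col1a1 at 1591 ± 179.2 CPM. In endothelial-like barcodes the basement membrane chains Col4a1 and Col4a2 led with 1440 ± 110.1 and 854.2 ± 53.25 CPM, followed by Col15a1 with 423.5 ± 122.8 CPM. In glial-like barcodes the first place was shared by Col3a1 at 1072 ± 425.6 CPM and Col18a1 at 974.6 ± 205.3 CPM, which did not differ beyond their spread. Squamous-like barcodes were led by Col17a1, a hemidesmosome protein of stratified epithelia, at 242 ± 65.68 CPM in 4 DSS libraries.

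Of the 44 genes, 16 had their highest pooled level in fibroblast-like barcodes, 10 in glial-like, 6 in endothelial-like, 6 in interstitial cell of Cajal-like and 2 in squamous-like barcodes. Mural-like, macrophage-like, T cell-like and B cell-like barcodes were the highest class for 1 gene each. In mural-like, T cell-like and B cell-like barcodes these were Col19a1 (2 UMIs there), Col10a1 (20 UMIs) and Col6a6 (1 UMI). Col2a1 in the glial-like, Col26a1 in the endothelial-like and Col9a1 and Col9a2 in the Cajal-like count rested on 1 to 3 UMIs there. Leukocyte-mixed and unnamed clusters were left out of the ranking. These pooled levels weight the libraries by their UMIs in the class. Of the fibroblast-like barcodes 4178 were untreated and 1580 DSS. Col18a1, counted as glial-like, stood at 255.6 ± 41.94 CPM in untreated (SD, n = 4) and 1279 ± 476.8 CPM in DSS fibroblast-like barcodes (n = 4), and at 974.6 ± 205.3 CPM (n = 4) and 1151 ± 172 CPM (n = 2) in glial-like ones. Col20a1, a fibril-associated chain, had 333 of its 482 UMIs in glial-like barcodes. Col17a1 had 1485 of 1675 UMIs in squamous-like barcodes, and Col13a1 had 1772 of 2273 UMIs in endothelial-like barcodes. Col23a1 reached 274.4 CPM in Cajal-like barcodes from 208 UMIs. Col2a1, Col6a6, Col9a1, Col9a2, Col10a1, Col19a1 and Col26a1 had fewer than 50 UMIs in all and are not read further.

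**Figure D1:**
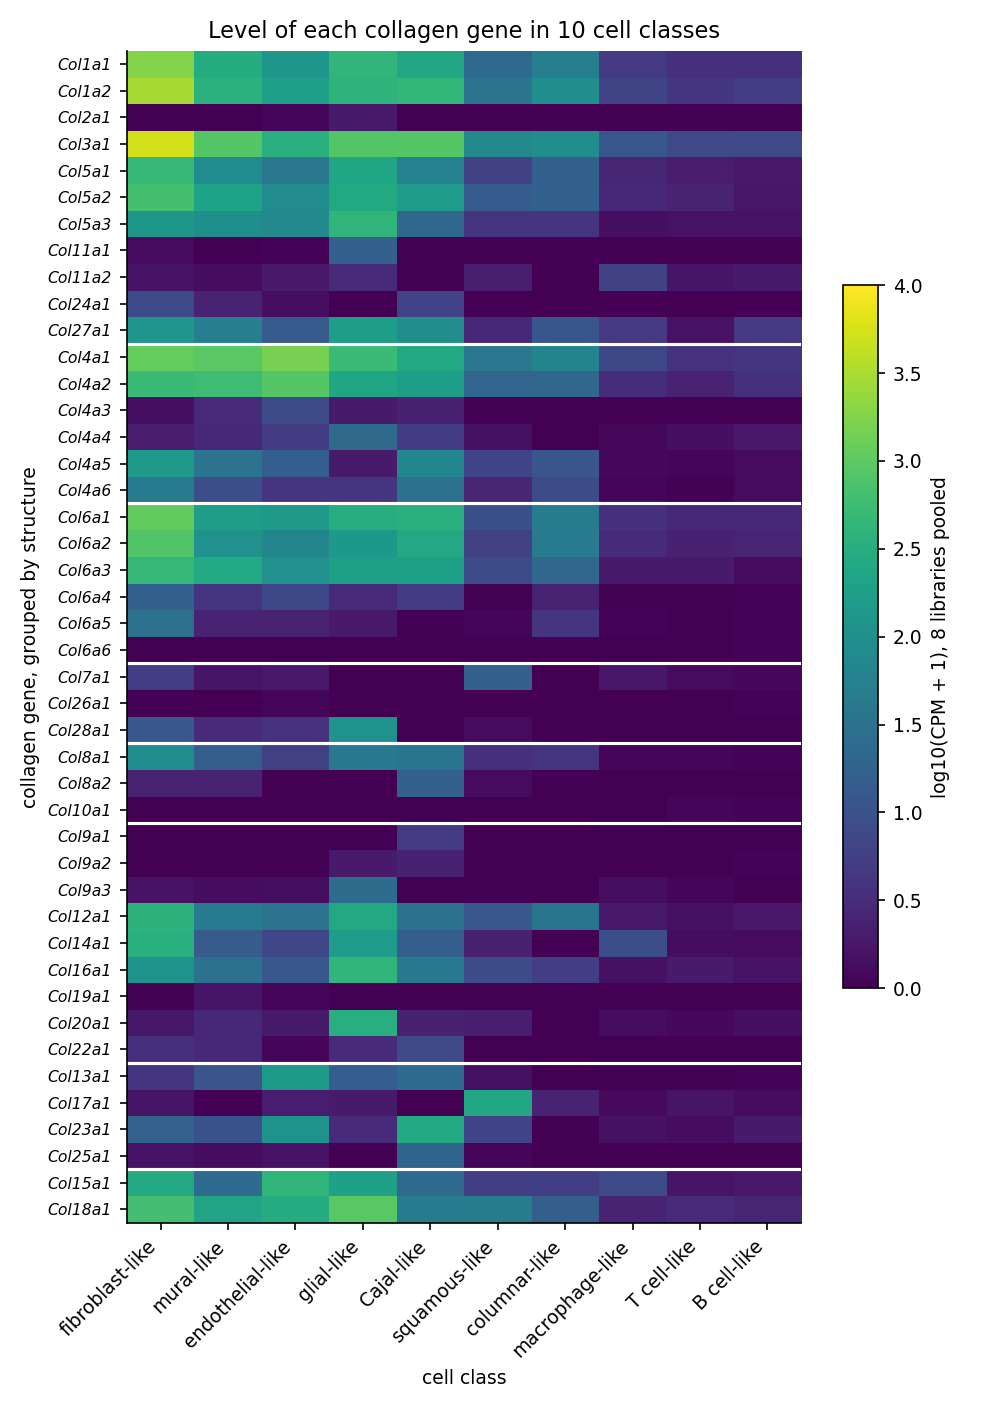
Pooled level of the 44 collagen genes in 10 classes, as log10(CPM + 1) over the 8 libraries; rows are ordered by the structure of the collagen and columns are classes of barcodes. Col3a1 (5269 CPM), Col1a2 (2975 CPM) and Col6a1 (1076 CPM) are brightest in the fibroblast-like column, Col5a3 (408.3 CPM) in the glial-like column, Col17a1 in the squamous-like column (246.4 CPM) and Col20a1 in the glial-like column (325.3 CPM).

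DSS against untreated was tested in each class over summed counts per library with edgeR's quasi-likelihood test, averaged over genotypes, with Benjamini-Hochberg adjustment over all genes and a threshold of 0.05. A gene past it is called higher or lower. The test took 33 of the 44 genes in at least 1 of the 6 classes tested. The 11 genes never tested were the 7 named above and Col8a2, Col9a3, Col11a1 and Col25a1, with 54 to 128 UMIs each. A filter on low counts set which genes were tested. In the annotation of build mm10, Col18a1 lies at chr10:77052178-77166548 (minus strand), Col3a1 at chr1:45311538-45349706 (plus) and Col7a1 at chr9:108953586-108984875 (plus). Col4a1 (chr8:11198423-11312826, minus) and Col4a2 (chr8:11312805-11449287, plus) stand head to head with overlapping starts.

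In fibroblast-like barcodes Col18a1, Col7a1, Col4a1, Col4a2, Col5a1, Col27a1 and Col23a1 rose after DSS, and Col4a5 and Col4a6 fell, while the abundant chains Col3a1, Col1a1, Col1a2, Col6a1 and Col6a2 did not pass the test. Of 28 collagen genes tested 9 were called, which is 32.1%, against 12.8% of the 11893 genes tested. Higher calls numbered 7 (7.28% of all genes were called higher) and lower calls 2 (5.53% were called lower). Col7a1 passed the filter only through the DSS libraries, where it was high, so its call gives no support to these counts. The median log2 fold change was 0.216 over the 28 genes and 0.00233 over all genes tested.

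Values per library are in the order WT 1, WT 2, S203AKI 1 and S203AKI 2. Col18a1, whose product is the source of the fragment endostatin, stood at 234.7, 231.8, 237.4 and 318.4 CPM in untreated and at 783.8, 1506, 996.4 and 1832 CPM in DSS libraries. Every DSS library lay above every untreated one. The fold change was 5.15 (log2 2.37, SE 0.29, edgeR adjusted p = 0.00143). Col4a1, which with Col4a2 forms the common type IV network, stood at 936.1, 776.8, 858.6 and 874.2 CPM and then at 1461, 1817, 1510 and 1888 CPM. The ranges did not overlap, and the fold change was 1.97 (log2 0.98, SE 0.16, adjusted p = 0.00598). Col4a2, its neighbour on the opposite strand, went from 445.3, 384.8, 439.2 and 411.2 CPM to 611.6, 812.2, 658 and 776.3 CPM, again without overlap (log2 0.79, SE 0.16, adjusted p = 0.0154).

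Col7a1, the anchoring fibril chain, had few UMIs and passed the filter on low counts only through the DSS libraries, where it was high, so its fold change is given as a description. It stood at 1.355, 1.093, 0.9084 and 0.8213 CPM in untreated and at 22.7, 14.47, 7.869 and 4.767 CPM in DSS libraries. All DSS libraries exceeded all untreated ones, and the wildtype DSS libraries were the highest (fold 9.85, log2 3.30, SE 0.32, edgeR adjusted p = 0.000527). These values rest on 5, 5, 6 and 3 UMIs in untreated and 17, 54, 16 and 13 UMIs in DSS libraries. Of the DSS UMIs, 17, 53, 12 and 11 came from 1 cluster, led by Sfrp2 and Il11, described below.

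The remaining risers changed less. Col5a1, a chain that starts and sizes collagen fibrils, stood at 452.1, 423.9, 401.5 and 348.2 CPM and then at 685, 601.4, 691.5 and 518.2 CPM (log2 0.63, SE 0.13, edgeR adjusted p = 0.0141). Col27a1, another fibril-forming chain, went from 122.5, 83.9, 98.56 and 101.3 CPM to 162.9, 151.9, 172.6 and 165.4 CPM (log2 0.70, SE 0.15, adjusted p = 0.0179). For both genes the lowest DSS library lay above the highest untreated one. The transmembrane chain Col23a1 was low, at 9.757, 15.73, 16.35 and 11.22 CPM and then 20.03, 19.02, 26.06 and 32.27 CPM, also without overlap (log2 0.86, SE 0.21, adjusted p = 0.0313).

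The lower calls were the X-linked pair Col4a5 and Col4a6, whose chains form the alternative type IV network of some basement membranes. Col4a5 stood at 238, 140.1, 173.7 and 206.1 CPM in untreated and at 98.81, 65.63, 119 and 33.37 CPM in DSS libraries (log2 -1.29, SE 0.33, edgeR adjusted p = 0.0325). Col4a6 stood at 62.61, 40.42, 50.11 and 63.79 CPM and then at 30.71, 27.86, 25.57 and 12.1 CPM (log2 -1.21, SE 0.23, adjusted p = 0.0113). For both, every DSS library lay below every untreated one, and DSS S203AKI library 2 was the lowest.

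The abundant fibrillar chains differed between the DSS libraries. Col3a1 stood at 5222, 5386, 5035 and 4551 CPM in untreated and 8769, 5022, 7757 and 4188 CPM in DSS libraries, so that library 1 of each genotype lay above the untreated range and library 2 did not (log2 0.34, SE 0.18, edgeR adjusted p = 0.24). Col1a1 put the DSS libraries in the same order and overlapped only through DSS S203AKI library 2, with 1792, 1571, 1640 and 1361 CPM against 3055, 2206, 2936 and 1302 CPM (log2 0.57, SE 0.21, adjusted p = 0.101). Col6a1 lay at 1169, 1135, 1117 and 1178 CPM and then at 869.3, 1062, 948.7 and 779.6 CPM (log2 -0.31, SE 0.13, adjusted p = 0.138).

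**Figure D2:**
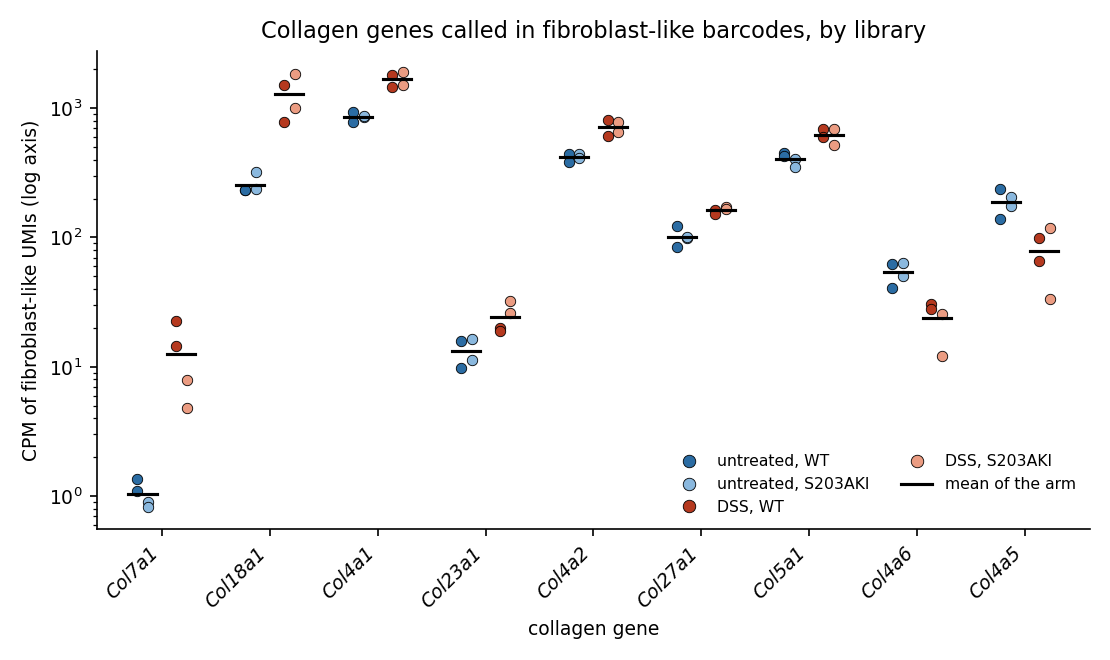
The 9 collagen genes called in fibroblast-like barcodes, as CPM of the class on a log axis; each point is 1 library, coloured by treatment and genotype, and bars are the mean of the 4 libraries of an arm. For each gene the DSS points lie apart from the untreated points, from Col7a1 near 1.044 CPM in untreated libraries to Col4a1 near 861.4 CPM.

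The calls depended on single libraries for 6 of the 9 genes. Only Col18a1, Col4a1 and Col7a1 were called in each of the 8 fits that left out 1 library. For Col7a1 this gives no support, since it passed the filter on low counts only through the DSS libraries. The count of called collagen genes was 4 without untreated WT library 2, untreated S203AKI library 1 or 2, or DSS WT library 2, and 5 without untreated WT library 1.

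The cluster makeup of the class changed with treatment. The cluster led by Sfrp2 and Il11 (Il11 encodes a cytokine of injured stroma) was 0.0733% to 0.515% of fibroblast-like barcodes in untreated and 19.5% to 57.2% in DSS libraries. The larger of 2 clusters led by Adamdec1 and Edil3 was 25.7% to 37.2% of the class in untreated and 1.66% to 6.19% in DSS libraries. The telocyte-like cluster, where Col4a5 and Col4a6 stood above their class level, held 24.6% to 33.4% in untreated and 13.3% to 22.1% in DSS libraries. Without the Sfrp2 and Il11 cluster, Col18a1 (log2 1.91, edgeR adjusted p = 0.000927), Col4a1, Col4a2 and Col5a1 were still called. Col23a1, Col27a1, Col4a5 and Col4a6 were not, with adjusted p of 0.328, 0.194, 0.108 and 0.234, and Col7a1 no longer passed the filter. Col1a1 was then called higher (log2 0.82, adjusted p = 0.0186).

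The series text asks for DSS against untreated within wildtype mice and for mutant against wildtype mice under each treatment. In wildtype fibroblast-like barcodes 1.64% of genes were called, among them Col7a1 (log2 3.78, SE 0.42, edgeR adjusted p = 0.00457) and Col18a1 (log2 2.30, SE 0.40, adjusted p = 0.0246). In S203AKI barcodes 2.53% were called, among them Col18a1 (log2 2.43, SE 0.40, adjusted p = 0.0179), Col7a1 (log2 2.82, SE 0.47, adjusted p = 0.0185), Col4a1 (log2 1.04, SE 0.23, adjusted p = 0.0461) and Col4a6 (log2 -1.58, SE 0.32, adjusted p = 0.0366). The Col7a1 values are descriptive in both genotypes, since the gene passed the filter only through the DSS libraries, where it was high. The wildtype count fell to 0 without either untreated WT library, to 1 without DSS WT library 2, and rose to 5 without either DSS S203AKI library. The mutant count fell to 0 without either untreated S203AKI library, to 1 without either untreated WT library and to 2 without DSS S203AKI library 2, and was 10 without DSS S203AKI library 1.

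No difference between genotypes was found for a collagen gene at this size of design. Mutant against wildtype gave 0 called genes of 11893 (0%) in untreated libraries, 0 (0%) in DSS libraries and 0 (0%) for the difference of the DSS effects with edgeR, and DESeq2 also gave 0 for each. At an unadjusted p under 0.05 the counts were 211, 271 and 185 genes. For Col3a1 the mutant minus wildtype log2 difference was -0.23 (SE 0.26) in untreated and -0.21 (SE 0.26) in DSS libraries, and for Col4a1 it was -0.07 (SE 0.22) and 0.05 (SE 0.22). For Col7a1 in DSS libraries it was -1.49 (SE 0.36, unadjusted p = 0.00222, edgeR adjusted p = 1), with both wildtype libraries above both mutant ones. A missed threshold with 2 libraries a group does not show that the genotypes are alike.

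The fibroblast-like class held clusters that responded differently. The adventitial-like cluster (907 barcodes, led by Has1, Cilp and Pcolce2 and carrying Pi16) is the kind of fibroblast known from vessel sheaths and deeper layers. In it most tested collagen genes were called: the fibrillar chains Col3a1, Col1a1, Col1a2, Col5a1, Col5a2 and Col27a1 rose with Col4a1, Col4a2 and Col12a1, whereas Col6a1, Col6a2, Col6a3, Col14a1, Col15a1 and Col5a3 fell. That was 15 of 19 genes tested (78.9%), against 11.5% of the 6341 genes tested. Higher calls numbered 9 (6.77% of all genes) and lower calls 6 (4.73% of all genes). The median log2 fold change was 0.255 over the 19 genes, which changed in both directions, and -0.00387 over all genes. These clusters were chosen for testing after the clustering had been seen.

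Col3a1 stood at 5349, 5193, 4926 and 4680 CPM in untreated and at 17992, 12339, 14306 and 10074 CPM in DSS libraries. All 4 DSS libraries lay above the untreated range (fold 2.77, log2 1.47, SE 0.14, edgeR adjusted p = 5.9e-06). Col1a1 went from 2601, 2121, 2056 and 1829 CPM to 6236, 6482, 6536 and 3074 CPM (log2 1.40, SE 0.19, adjusted p = 0.000106). DSS S203AKI library 2 was the least raised in both. Col4a1 went from 694.8, 679.7, 654.3 and 639.1 CPM to 2069, 2296, 1600 and 1671 CPM (log2 1.54, SE 0.15, adjusted p = 4.23e-06). Col5a2, the partner of Col5a1, went from 590, 513.5, 522.6 and 469.7 CPM to 1246, 1090, 1163 and 827.6 CPM (log2 1.08, SE 0.16, adjusted p = 0.000302), again without overlap.

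The fallers included all 3 chains of the common type VI collagen. Col6a3 went from 1216, 894.4, 923.4 and 1237 CPM to 633.8, 608.4, 784.1 and 391.9 CPM (log2 -0.79, SE 0.20, edgeR adjusted p = 0.0164). Col14a1, a fibril-associated chain, went from 1563, 1606, 1146 and 1383 CPM to 730.6, 733.4, 1035 and 361.3 CPM (log2 -0.95, SE 0.23, adjusted p = 0.0112). Neither gene's ranges overlapped. Col12a1, called higher, did overlap, with 117, 89.63, 93.32 and 49.33 CPM against 334.5, 273.5, 161 and 81.01 CPM. By structure, the summed fibril-forming level was 11676 ± 1161 CPM (SD, n = 4) in untreated and 27433 ± 6259 CPM (n = 4) in DSS libraries, and the beaded-filament level 2686 ± 193.3 and 1665 ± 366.3 CPM. The total collagen level of the cluster was 17636 ± 1386 and 33534 ± 7224 CPM. The fibroblast marker list, which holds no collagen gene, summed to 40449 to 43170 CPM in untreated and 26749 to 29768 CPM in DSS libraries, all 12 markers being detected, and its part in the collagen differences was not tested.

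Without 1 library at a time, Col12a1, Col1a1, Col1a2, Col3a1, Col4a1, Col4a2, Col5a1 and Col5a2 stayed called in all 8 fits, while Col27a1, Col6a1 and Col6a2 each lost their call in 7 of them, Col15a1 and Col6a3 in 3, Col14a1 in 2 and Col5a3 in 1. Without DSS WT library 2, 8 genes were called higher and 1 lower. Within wildtype libraries 8 collagen genes were called, all higher (3.83% of all genes were called), and within S203AKI libraries 7 higher and Col15a1 lower (6.21% of all genes). The wildtype count was 4 without untreated WT library 1 or DSS WT library 1, 3 without untreated WT library 2 and 5 without DSS WT library 2. The mutant count was 3 and 2 without untreated S203AKI libraries 1 and 2. Mutant against wildtype gave 0 genes in untreated libraries (0%), 1 gene and no collagen gene in DSS libraries (0.0158%), and 0 genes for the difference of DSS effects (0%), with 224, 314 and 262 genes at an unadjusted p under 0.05 and 0, 1 and 1 genes called by DESeq2. Without DSS S203AKI library 1 the comparison in DSS libraries rests on 1 mutant library, so calls from that fit are not read as a genotype difference.

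A second, leukocyte-mixed cluster with adventitial genes (556 barcodes, led by Cfd, Saa3 and Has1) held separate barcodes of the same libraries. There 11 of 18 collagen genes were called, 7 higher and 4 lower, against 9.45% of all genes. Col3a1 went from 2895 ± 382.3 to 10740 ± 2511 CPM (SD, n = 4 each; log2 1.94, SE 0.16, edgeR adjusted p = 1.01e-06), and Col6a1, Col6a2, Col6a3 and Col15a1 were the lower calls.

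The promoters of chains that moved in these barcodes are shown to give the sequence next to their starts. They are the 250 bases before the start of Col3a1 and Col5a1, which rose together in the adventitial-like cluster, of Col6a3, which fell there, and of Col7a1, which rose in the class. All come from RefSeq with build GRCm38.p6, read 5′ to 3′ on the gene's strand, and 35 of the 44 genes had an entry. The windows are chr1:45311288-45311537 (plus strand, Col3a1), chr2:27886175-27886424 (plus, Col5a1), chr1:90843972-90844221 (minus, Col6a3) and chr9:108953336-108953585 (plus, Col7a1), each ending at the base before the first exon. Capitals mark matches on either strand to TATAAA for the TATA box, CCAAT for the CCAAT box, GGGCGG for the GC box or TGANTCA for the AP-1 site.
Col3a1: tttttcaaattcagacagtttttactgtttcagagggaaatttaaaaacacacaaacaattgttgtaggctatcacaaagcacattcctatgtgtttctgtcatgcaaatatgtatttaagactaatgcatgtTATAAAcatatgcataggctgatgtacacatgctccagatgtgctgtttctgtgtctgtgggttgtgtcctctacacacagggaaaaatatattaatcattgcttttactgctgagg
Col5a1: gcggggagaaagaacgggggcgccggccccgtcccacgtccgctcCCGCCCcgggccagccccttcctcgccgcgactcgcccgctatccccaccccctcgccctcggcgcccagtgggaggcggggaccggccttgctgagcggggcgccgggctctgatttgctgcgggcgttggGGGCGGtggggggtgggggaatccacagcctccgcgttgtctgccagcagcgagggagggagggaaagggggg
Col6a3: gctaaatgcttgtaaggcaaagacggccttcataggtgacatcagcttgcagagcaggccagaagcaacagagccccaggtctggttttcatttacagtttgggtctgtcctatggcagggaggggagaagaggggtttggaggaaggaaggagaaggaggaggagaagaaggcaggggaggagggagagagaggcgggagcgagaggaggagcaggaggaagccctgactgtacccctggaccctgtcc
Col7a1: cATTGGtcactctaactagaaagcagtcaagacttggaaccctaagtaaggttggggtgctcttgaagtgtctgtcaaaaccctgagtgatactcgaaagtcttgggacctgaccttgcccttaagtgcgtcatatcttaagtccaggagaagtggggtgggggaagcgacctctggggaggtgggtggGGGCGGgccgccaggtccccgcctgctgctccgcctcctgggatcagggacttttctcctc
The Col3a1 window held TATAAA 117 to 112 bases before the start and no GGGCGG. The Col5a1 window, rich in G and C, held GGGCGG at 73 to 68 bases and on the other strand at 205 to 200 bases. The Col7a1 window held GGGCGG at 61 to 56 bases and CCAAT on the other strand at 249 to 245 bases, and the Col6a3 window held none of the 4 motifs. Of 32851 windows of 250 bases, 12.4% held TATAAA, 33.8% held CCAAT, 32.7% held GGGCGG and 6.75% held TGANTCA. A match is a run of letters, and binding was not measured.

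The telocyte-like cluster (1481 barcodes, led by Bmp3, Sox6 and Rbp4) is the fibroblast type known to lie under the epithelium. Its called collagen gene with the largest fold change was Col18a1, which stood at 213.1, 168.4, 210.1 and 336 CPM in untreated and at 1112, 2035, 1487 and 2838 CPM in DSS libraries. The ranges did not overlap (fold 8.34, log2 3.06, SE 0.32, edgeR adjusted p = 0.00249). Col6a4 (log2 1.45, SE 0.26, adjusted p = 0.0174) and Col23a1 (log2 1.70, SE 0.33, adjusted p = 0.0257) also rose. These were 3 of 23 tested genes, against 1.96% of 9468 genes. The macrophage list in this cluster stood at 236.4 to 360.2 CPM in untreated and 375 to 815.4 CPM in DSS libraries, and the glial list at 124.2 to 204.6 and 247.3 to 360.9 CPM, both without overlap. Their part was not tested.

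In the same cluster Col3a1 stood at 4424, 4812, 4133 and 3678 CPM in untreated and at 4152, 2368, 3740 and 1253 CPM in DSS libraries (log2 -0.60, SE 0.26, adjusted p = 0.253). Col4a5 stood at 541, 435.4, 469.9 and 513.5 CPM and then at 421.1, 233, 454.4 and 152.2 CPM (log2 -0.68, SE 0.28, adjusted p = 0.239), so its call in the whole class did not recur within its main cluster. The count of 3 became 1 (Col18a1) without any one of the 4 untreated libraries and 7 without DSS S203AKI library 1.

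The responses of the adventitial-like and telocyte-like clusters were compared directly in 1 edgeR fit with the library as a block. Of 22 collagen genes tested 12 differed, against 2.54% of 6862 genes. The log2 fold change of Col3a1 was higher in the adventitial-like cluster by 2.13 (SE 0.16, adjusted p = 2.7e-06), and those of Col12a1, Col1a1, Col5a2, Col4a2, Col1a2 and Col4a1 by 0.88 to 1.38. In the telocyte-like cluster Col3a1 (-0.60), Col12a1 (-0.14), Col1a2 (-0.10) and Col5a2 (-0.05) had negative values. The change of Col18a1 was lower in the adventitial-like cluster by -2.97 (SE 0.33, adjusted p = 0.00014), and those of Col6a3, Col5a3, Col6a2 and Col6a1 by -1.20 to -0.66. Col18a1 itself stayed at 60.95, 98.96, 69.75 and 83.64 CPM in untreated and 79.22, 106, 69 and 67.87 CPM in DSS adventitial-like barcodes, with overlapping ranges (log2 0.09, SE 0.21). Fits without 1 library at a time kept 8 to 11 of these calls, with 8 kept without untreated WT library 1, untreated S203AKI library 2 or DSS WT library 2, and Col18a1, Col1a1, Col1a2, Col3a1, Col4a2, Col5a2, Col6a2 and Col6a3 were called in all of them.

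**Figure D3:**
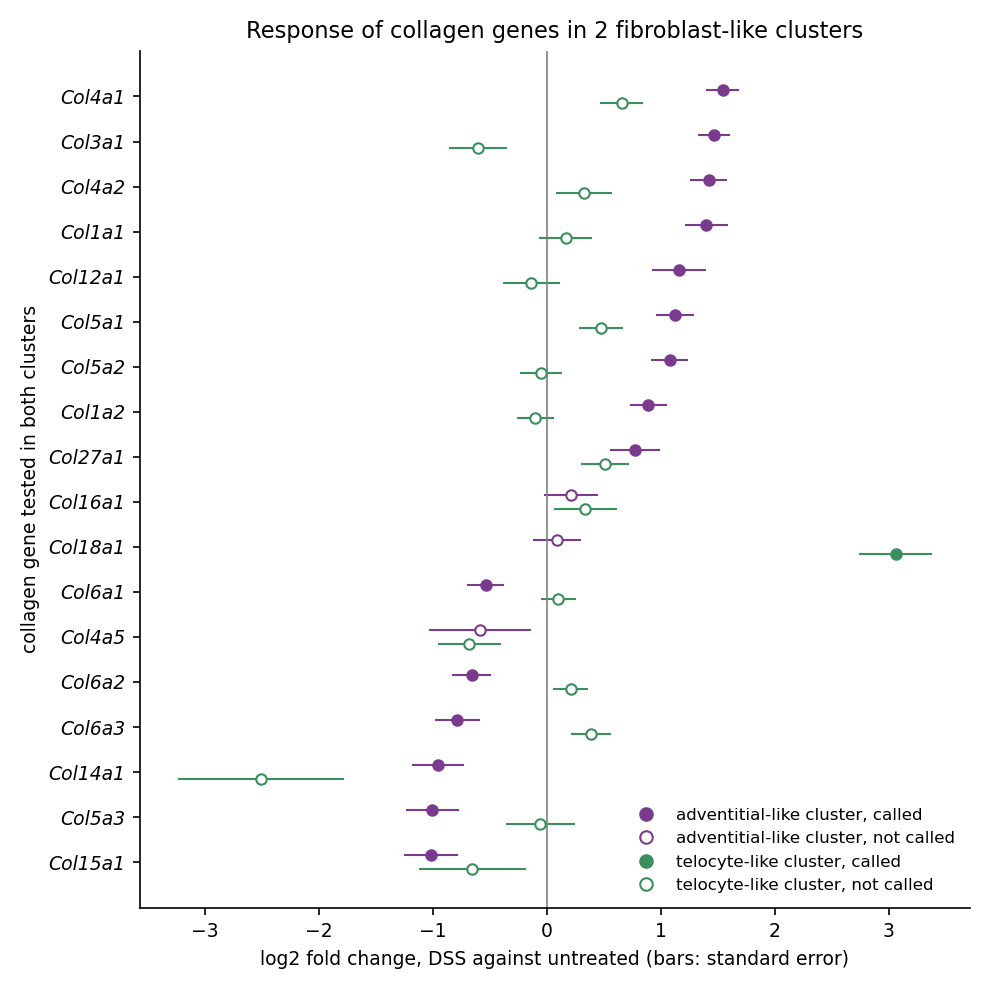
Log2 fold change of DSS against untreated for the 18 collagen genes tested in both clusters, with bars of 1 standard error; filled points passed edgeR's adjusted p of 0.05 in that cluster. Adventitial-like points run from 1.54 (Col4a1) to -1.01 (Col15a1), and Col18a1 stands at 3.06 in the telocyte-like and 0.09 in the adventitial-like cluster.

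An unnamed cluster of 728 barcodes was led by Hhip, Actg2 and Cnn1. It carried the mural list at 16903 to 25873 CPM in untreated libraries together with fibroblast markers at 5406 to 7438 CPM, so it is called the contractile cluster. In DSS libraries the mural list stood at 10055 to 20132 CPM and the fibroblast list at 5180 to 7450 CPM. The macrophage list stood at 147.5 to 217.8 CPM in untreated and 298.1 to 641.2 CPM in DSS libraries, without overlap, and its part in the calls was not tested. Of 22 collagen genes 8 were called, against 7.55% of 7508 genes. Col18a1 (log2 2.12, SE 0.24, edgeR adjusted p = 0.000119), Col6a3 (log2 1.14, SE 0.17, adjusted p = 0.000885) and Col16a1 (log2 0.94, SE 0.17, adjusted p = 0.00392) rose. Col14a1 (log2 -2.81), Col4a5 (-1.99), Col12a1 (-0.88), Col1a1 (-0.58) and Col4a6 fell. Col4a6 had 32 UMIs in untreated and 0 of 1842076 UMIs in DSS barcodes, which allows up to 1.629 CPM if 3 counts are taken as the limit. Both Col4a6 and Col14a1 passed the filter only through the untreated libraries, where they were higher. Col4a5 was also low in DSS libraries. There the 6 type IV genes summed to a mean of 2349 CPM, of which Col4a1 held 1591 and Col4a2 748.3 CPM. The calls of Col4a6, Col14a1 and Col4a5 therefore give no support to the count of 8.

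Col6a3 went from 326.7, 410.4, 337.8 and 361.3 CPM to 751.4, 1055, 590.4 and 907.9 CPM in the contractile cluster, without overlap and opposite in direction to the adventitial-like cluster. The difference between those 2 clusters was not tested. The count of 8 became 4 without untreated WT library 1 or untreated S203AKI library 2 and 5 without DSS WT library 2. Col14a1, Col16a1, Col18a1 and Col6a3 were called in all 8 fits. For Col14a1 this gives no support, because of the filter limit given above.

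**Figure D4:**
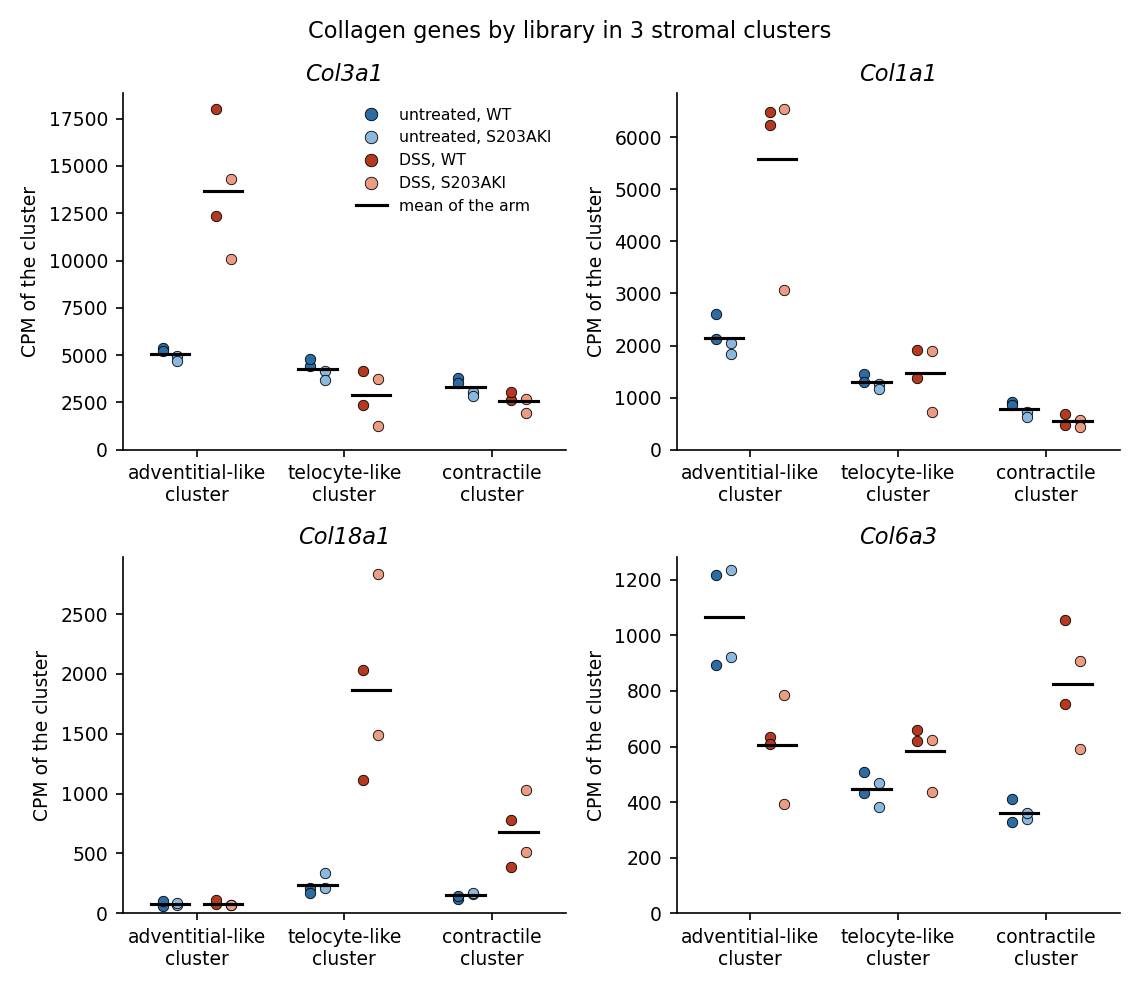
CPM of Col3a1, Col1a1, Col18a1 and Col6a3 in the adventitial-like, telocyte-like and contractile clusters; each point is 1 library and bars are means of the 4 libraries of an arm, on linear axes from 0. Col3a1 and Col1a1 are raised after DSS in the adventitial-like cluster (10074 to 17992 and 3074 to 6536 CPM), and Col18a1 is raised in the other clusters.

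The Sfrp2 and Il11 cluster held 9 barcodes in untreated and 734 in DSS libraries, so it was described and not tested. Its summed collagen level was 18754 ± 2017 CPM (SD, n = 4 DSS libraries). Col18a1 stood at 1300, 1702, 1386 and 2321 CPM, and Col7a1 at 121.4, 24.63, 18.86 and 6.657 CPM in DSS WT 1, DSS WT 2, DSS S203AKI 1 and DSS S203AKI 2. The first of these libraries had 22 barcodes in the cluster. The pooled Adamdec1 clusters had enough barcodes in 4 untreated and 2 DSS libraries (DSS WT 2 and DSS S203AKI 1), and 7 of 25 collagen genes were called, against 3.06% of 11077 genes. Col18a1 (log2 1.72, SE 0.13, edgeR adjusted p = 9.11e-07), Col27a1 and Col4a1 rose, and Col12a1, Col5a3, Col14a1 and Col3a1 (log2 -0.58) fell. The median of all genes was -0.146 in that fit and 0.0387 with scaling by library size alone, which left 4 calls, 3 higher and 1 lower. There were 3 calls without untreated WT library 1 or DSS S203AKI library 1 and 2 without DSS WT library 2, and only Col18a1 was called in all 6 fits without 1 library.

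Endothelial-like barcodes (1956) carried all 14 endothelial markers at 10462 to 13103 CPM in untreated and 10520 to 12193 CPM in DSS libraries. Col23a1 stood at 84.83, 84.78, 97.69 and 77.53 CPM in untreated and at 164.7, 193.4, 139 and 157.7 CPM in DSS libraries (log2 0.91, SE 0.15, edgeR adjusted p = 0.0148). Col18a1, a collagen of vascular basement membranes, stood at 254.5, 269.6, 286.9 and 205.5 CPM and then at 379.2, 469.6, 415.7 and 355.8 CPM (log2 0.67, SE 0.15, adjusted p = 0.0461). Neither gene's ranges overlapped. These were 2 of 24 tested genes, against 2.13% of 10258 genes. Col4a1, the leading chain, stood at 1440 ± 110.1 and 1783 ± 191.7 CPM (adjusted p = 0.186). The Col18a1 call was lost in each fit without 1 library, and that of Col23a1 without untreated WT 2, untreated S203AKI 2, DSS WT 2 or DSS S203AKI 2.

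Glial-like barcodes (283, with all 10 glial markers detected) had at least 20 barcodes in the 4 untreated libraries and in DSS WT 1 and DSS S203AKI 1, and DSS WT 2 and DSS S203AKI 2 were left out. Col20a1 stood at 222.9, 183.1, 167.6 and 220.2 CPM in untreated and at 722.9 and 662.3 CPM in those DSS libraries (fold 3.44, log2 1.78, SE 0.25, edgeR adjusted p = 2.82e-06). Col16a1, a fibril-associated chain, stood at 313.3, 271, 274.9 and 220.2 CPM and then at 983.1 and 703 CPM (log2 1.56, SE 0.24, adjusted p = 1.51e-05). For both, the DSS libraries lay above all untreated ones. Col3a1 stood at 1265, 483.4, 1070 and 1472 CPM and then at 395.2 and 295.5 CPM (log2 -1.66, SE 0.31, adjusted p = 0.000437, and 0.25 by DESeq2). These were 3 of 21 tested genes, against 3.65% of 3179 genes. Fibroblast markers in the glial-like barcodes summed to 1758 to 2954 CPM in untreated and 1528 to 1860 CPM in DSS libraries, and endothelial markers to 250.3 to 1795 and 38.55 to 40.76 CPM. Their part in the Col3a1 difference was not tested. All 3 calls were kept in each of the 6 fits without 1 library, of which the 2 without a DSS library compare 1 genotype's DSS library with the untreated ones, and without untreated S203AKI library 2 there were 5.

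Mural-like barcodes (323) combined a smooth muscle cluster led by Actg2 and a pericyte-type cluster led by Rgs5. Untreated S203AKI library 2 had too few barcodes and was left out. All 6 collagen genes called were higher, of 17 tested (35.3%), against 5.44% of 5183 genes called and 3.01% called higher. Col18a1 stood at 19.42, 112.1 and 37.13 CPM in untreated and at 603, 232.6, 730.1 and 878.5 CPM in DSS libraries (log2 3.48, SE 0.52, edgeR adjusted p = 0.00221). Col5a3, a minor fibrillar chain, stood at 19.42, 40.47 and 20.94 CPM and then at 164.9, 195.6, 488.5 and 261.4 CPM (log2 3.26, SE 0.34, adjusted p = 0.000319). In both, the lowest DSS library exceeded the highest untreated one. Col5a3 passed the filter on low counts only through the DSS libraries, where it was high. Its fold change is therefore a description, and its call gives no support to the count of 6. Col4a1 (log2 1.23), Col4a2 (1.21), Col5a1 (1.30) and Col6a3 (1.26) rose as well.

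The makeup of the mural-like class varied, with the Rgs5 cluster at 10.3% to 25.6% of barcodes in the 3 untreated libraries tested and 26.9% to 58.3% in the DSS libraries, without overlap. Its part in the 6 higher calls was not tested over libraries. Pooled over libraries, Col18a1 in the Rgs5 cluster stood at 333.8 CPM (95% exact Poisson interval 255.3 to 428.7, 43 barcodes) in untreated and 1466 CPM (1342 to 1599, 47 barcodes) in DSS samples. In the smooth muscle cluster it stood at 15.28 CPM (10.15 to 22.09) and at 0 UMIs, with 7.829 CPM as the upper end of the exact Poisson interval. Col4a1 stood at 1100 CPM (953 to 1263) and 3153 CPM (2969 to 3344) in the Rgs5 cluster and at 587.2 CPM (552.7 to 623.4) and 628.2 CPM (558.7 to 704) in the smooth muscle cluster. Col6a3 stood at 207.9 CPM (147.1 to 285.4) and 1035 CPM (930.8 to 1147) in the Rgs5 cluster, and in the smooth muscle cluster it was lower in DSS barcodes, at 97.63 CPM (71.48 to 130.2) against 183.9 CPM (164.8 to 204.6). These intervals cover counting error only. The mural list of the class summed to 64650 to 82327 CPM in untreated and 38319 to 54512 CPM in DSS libraries, without overlap, the fibroblast list to 550.9 to 1783 and 1353 to 5411 CPM, and the macrophage list to 297 to 750.3 and 94.22 to 284.5 CPM. Their part in the calls was not tested. Leaving out barcodes with at least 2 leukocyte UMIs also took DSS WT 2 and DSS S203AKI 1 (18 and 19 barcodes) under the limit of 20, so 2 DSS libraries remained. In that fit Col18a1 (edgeR adjusted p = 0.0435) and Col5a3 (adjusted p = 0.0354) stayed called. For Col5a3, which passed the filter of the main fit only through the DSS libraries, this gives no support. Col4a1 (log2 1.177), Col4a2 (1.24) and Col5a1 (1.338) kept the size of their fold changes but not their calls, Col6a3 stood at 0.7555, and in fits without 1 library only the Col6a3 call was lost.

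**Figure D5:**
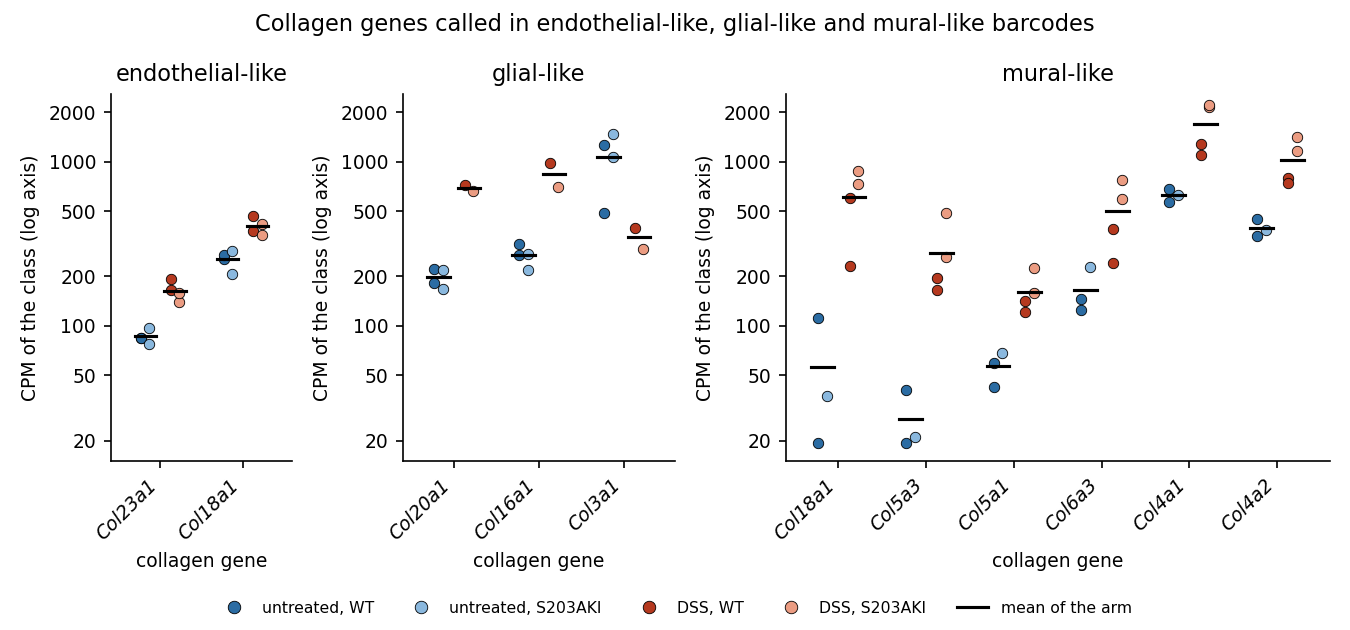
Collagen genes called in endothelial-like, glial-like and mural-like barcodes, as CPM of the class on a log axis; each point is 1 library and bars are means of the libraries of an arm. In each panel the DSS and untreated points do not overlap, and Col3a1 in glial-like barcodes is the one gene that is lower after DSS (295.5 and 395.2 CPM).

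Squamous-like barcodes numbered 3 in untreated and 338 in DSS libraries, so no treatment comparison was made. Col17a1 stood at 201.7, 284.3, 310 and 172 CPM and Col7a1 at 5.401, 17.23, 14.67 and 16.99 CPM in the 4 DSS libraries, and the 44 genes summed to 567.9 ± 75.86 CPM (SD, n = 4). Squamous epithelium lines the anal canal rather than the colon, and Col17a1 and Col7a1 are known components of its junction with the stroma.

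In leukocytes collagen levels were low. In macrophage-like barcodes Col14a1 was the only call of 14 genes tested, at 8.71, 7.311, 14.22 and 7.582 CPM in untreated and 7.053, 5.869, 6.473 and 4.665 CPM in DSS libraries (log2 -0.81, SE 0.23, edgeR adjusted p = 0.0272), against 24.2% of 10924 genes. The call was lost with DESeq2, with scaling by library size alone (where another collagen gene was called, higher) and without untreated WT 1, untreated WT 2, untreated S203AKI 1, DSS WT 2 or DSS S203AKI 2, and without untreated S203AKI 2 there were 2 calls. The macrophage list of the class summed to 16615 to 20960 CPM in untreated and 11146 to 12185 CPM in DSS libraries. The T cell list summed to 523.7 to 634.8 and 743.7 to 1041 CPM, and the part of either was not tested. In T cell-like barcodes Col18a1 stood at 1.124, 0.9397, 0.7206 and 0.8074 CPM and then at 1.45, 2.682, 3.073 and 3.814 CPM (log2 1.49, SE 0.26, adjusted p = 0.00916). It and Col11a2 (log2 1.32, adjusted p = 0.0405) were 2 of 20 genes called, against 23.2% of 12654 genes. Col18a1 in fibroblast-like barcodes of the same DSS libraries stood at 783.8, 1506, 996.4 and 1832 CPM, and the part of RNA from other cells in the T cell-like values was not tested. Without untreated WT library 2 neither gene was called, and without any other library but DSS WT 1 only 1 was.

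Genes that modify, assemble, bind and degrade collagens were followed as 6 lists. The degradation list also holds the protease inhibitors Timp1, Timp2 and Timp3, so its counts are not counts of degrading enzymes alone. In fibroblast-like barcodes 9 of 11 tested genes of the degradation list rose and none fell, where 7.28% of all genes rose, with a median log2 fold change of 1.23 against 0.00233 over all genes. The stromelysins Mmp3 and Mmp10, which cut matrix proteins and activate other proteases, went from 18.61 ± 6.354 to 516.4 ± 109.7 CPM (log2 4.81, edgeR adjusted p = 1.86e-05) and from 8.935 ± 2.131 to 96.16 ± 56.03 CPM (log2 3.47, adjusted p = 0.00126; SD, n = 4 each). Mmp3 was among the leading genes of the Sfrp2 and Il11 cluster. That cluster was 0.0733% to 0.515% of the class in untreated and 19.5% to 57.2% in DSS libraries. The collagenase Mmp13 went from 1.763 ± 1.371 to 41.7 ± 29.28 CPM, with its call lost without DSS WT library 2, and Ctsk, the lysosomal collagenase cathepsin K, from 107.9 ± 7.749 to 233.7 ± 27.9 CPM.

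Of 19 enzymes and chaperones of chain modification 4 rose and 1 fell, where 7.28% of all genes rose and 5.53% fell, and their median was 0.195. The lysyl hydroxylase Plod2 rose from 207 ± 17.84 to 328.8 ± 44.91 CPM (log2 0.68, edgeR adjusted p = 0.0203), and Crtap, P3h3 and Fkbp10 rose by 0.42 to 0.55. In the 8 fits without 1 library the Fkbp10 call was lost in all 8, those of Crtap and P3h3 in 6 and that of Plod2 in 4. Of 12 processing and crosslinking genes 2 rose and 1 fell: lysyl oxidase Lox (log2 1.10), the procollagen protease Bmp1 (0.50) and Loxl4 (-0.88), where 12.8% of all genes were called either way. Lox was called in all fits without 1 library, while Bmp1 lost its call in 5 and Loxl4 in 7. Of 14 fibril partners none rose and 4 fell, where 5.53% of all genes fell: Postn (log2 -0.96), Fn1 (-0.57), Tnxb (-0.69) and Fbln5 (-0.88). The Postn call was lost in 4 fits without 1 library, and the others in 6. Of 13 basement membrane partners 3 rose, the laminin chains Lama1 (1.77) and Lama5 (1.81) and nidogen Nid2 (1.55), where 7.28% of all genes rose. The arms of Lama5 overlapped and its call was lost in 5 fits without 1 library, that of Nid2 in 1 and that of Lama1 in none.

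Of 9 collagen receptor genes 4 rose and 1 fell, where 7.28% and 5.53% of all genes did. The endocytic receptor Mrc2 rose (log2 0.93, SE 0.12, edgeR adjusted p = 0.00235), and the integrin chain Itga11 fell (-1.35, adjusted p = 0.0145), with its call lost in 3 fits without 1 library. Mrc1 (log2 3.41) and Lair1 (2.74) are macrophage and leukocyte genes. The macrophage list summed to 230.8 to 340.4 CPM in untreated and 237.7 to 535 CPM in DSS fibroblast-like barcodes, with all 10 markers detected. Without DSS WT library 2 the values of Mrc1 and Lair1 were negative (log2 -1.019 and -0.5118). Their calls rested on that library and give no support to the count of 4.

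In the adventitial-like cluster 6 of 8 genes of the degradation list, the inhibitor Timp1 among them, were higher and 1 was lower. The same lists gave 2 of 16 modification genes higher and 2 of 9 processing genes higher and 1 lower. Over all genes of the cluster 6.77% were called higher and 4.73% lower, so the modification count lay near that share. Of 10 basement membrane partners none rose and Lama2 fell (log2 -0.57, with its call lost in all 8 fits without 1 library), and of 6 receptors Itga1 (1.51) and Mrc2 (0.66) rose and Itga11 (-1.92) fell. The call of Mrc2 was lost in 5 of those 8 fits and that of Itga11 in 1, without DSS WT library 2. Lox rose from 87.82 ± 12.94 to 501.5 ± 88.46 CPM (SD, n = 4 each; log2 2.53, SE 0.18, edgeR adjusted p = 2.98e-07), and Bmp1 rose by 0.91 on the log2 scale, while Pcolce2, an enhancer of procollagen cleavage, fell (log2 -1.52). Mmp3 (3.47), the protease inhibitor Timp1 (2.55), the gelatinase Mmp2 (1.78) and Ctsk (1.72) rose. Among 13 fibril partners Sparc rose (0.64, with its call lost in 7 fits without 1 library) and Postn (-1.39), Tnxb (-0.90) and Fbln1 (-0.95) fell. In the telocyte-like cluster the laminin chains Lama1 (2.72) and Lama5 (1.86) and Nid2 (2.20) rose, which were 3 of 12 basement membrane partners. There 4 of 10 genes of the degradation list, which also holds inhibitors, rose, where 1.96% of all genes were called.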

How the data were processed

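Single-cell 3′ RNA sequencing of 8 libraries was read from the whole-number UMI counts that the authors deposited per gene and barcode. Cell Ranger 3.1.0, Seurat 4.0.1 and build mm10 are named, per the submitters' processing notes. The strand setting of counting is not given in the sources used here. Whether reads near the shared start of Col4a1 and the head-to-head Col4a2 were told apart is therefore not known here. The counted tags mark transcript 3′ ends, which lie at the far ends of both genes. Barcodes with at least 400 genes and under 20% mitochondrial UMIs were kept, scaled to 10000 UMIs and clustered (scanpy 1.11.5, leidenalg 0.10.2; 2000 variable genes, 30 components, 15 neighbours, resolution 1), first all barcodes and then the stromal and epithelial ones, without collagen and pathway genes. Classes were named "-like" from marker lists that hold no collagen gene. No doublet caller was run, and stromal clusters whose leukocyte marker level passed a limit set after the clusters were seen were kept apart as leukocyte-mixed.

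Counts were summed per library and class (at least 20 barcodes) and tested with edgeR 4.0.16 quasi-likelihood (TMM scaling, filterByExpr, 4 groups in 1 fit, Benjamini-Hochberg over all genes tested, threshold 0.05) under R 4.3.3. Levels are CPM. The test was checked on simulated data. Alternatives were DESeq2 1.42.0, no filter, the compared groups alone, coarser clusters, barcodes of at least 1000 UMIs, barcodes with fewer than 2 leukocyte UMIs and each library left out. Fits of single clusters, their difference, the exclusion of the Sfrp2 and Il11 cluster, a block on neighbouring animal numbers for the genotype comparisons and scaling by library size were added after seeing the data. Named genes were the members called in a class (at most 12 in fibroblast-like and 5 in other classes by smallest adjusted p), those among the 6 highest of a class, and at most 4 called genes of each pathway list; cluster results, Mmp2 and further mural members were named after their values were seen. Collagen members and lists were chosen with earlier results of these data known. The 2 libraries of a group come from separate mice as far as the series text says, and no others were pooled. Totals of 34497509 to 46960005 UMIs per library set the precision, and intervals cover counting error only.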

Additional observations from a re-analysis of the deposited data

Results flagged for a closer look

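In 4 of 105 groups of 4 libraries 1 library lay far from the other 3 by Dixon's criterion, where chance gives about 1 in 20. Col18a1 stood at 318.4 CPM in untreated S203AKI library 2 of the fibroblast-like class, against 231.8 to 237.4 CPM in the other untreated libraries. In the adventitial-like cluster after DSS, Col1a1 stood at 3074 CPM in S203AKI library 2, against 6236 to 6536 CPM, and Col27a1 at 75.27 CPM in S203AKI library 1, against 57.21 to 59.12 CPM. Col14a1 in the contractile cluster after DSS stood at 19.75 CPM in S203AKI library 1, against 7.307 to 9.126 CPM.

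The DSS effect differed between the adventitial-like and telocyte-like clusters for 12 collagen genes, by the test of the difference itself (edgeR, library as a block). On the log2 scale, adventitial-like minus telocyte-like, fibrillar and fibril-associated chains differed by 2.132 (Col3a1), 1.38 (Col12a1), 1.246 (Col1a1), 1.121 (Col5a2) and 0.9859 (Col1a2). The basement membrane chains Col4a2 and Col4a1 differed by 1.119 and 0.8839. Col18a1 differed by -2.967, Col5a3 by -0.9667, and the beaded-filament chains Col6a3, Col6a2 and Col6a1 by -1.195, -0.8939 and -0.6555.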

How the results depend on the processing

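The groups share no replicate numbers in the labels. Titles carry animal numbers, and neighbouring numbers join 1 mutant and 1 wildtype library of each treatment, which the labels do not call pairs. A replicate block on these neighbours, added after seeing the data, gave 0 collagen genes for each of the 3 genotype comparisons in fibroblast-like barcodes and in the adventitial-like cluster. DSS against untreated has no such pairs. Counts below are of collagen genes called. The share of all genes called under each setting is not given beside them. A larger count is therefore not read as a stronger collagen response. Without a filter on low counts, fibroblast-like calls went from 9 to 15, within wildtype from 2 to 8 and within mutant from 4 to 11. Mutant against wildtype after DSS and the difference of DSS effects went from 0 to 1 each, as did mutant against wildtype after DSS in the adventitial-like cluster. Endothelial-like calls then numbered 4 (from 2), macrophage-like 3 (from 1), T cell-like 5 (from 2) and telocyte-like 7 (from 3). Coarser clusters gave 15 fibroblast-like, 10 within mutant and 4 endothelial-like calls, and moved the mean endothelial-like share from 3.008% to 4.127% in untreated and from 1.163% to 1.641% in DSS libraries. Fits of the compared groups alone left 1 call within mutant, and without the Sfrp2 and Il11 cluster there were 2. Barcodes with fewer than 2 leukocyte UMIs gave 1 endothelial-like and 2 mural-like calls (from 6). The mural-like fit then also lacked DSS WT 2 and DSS S203AKI 1, which fell under 20 barcodes, with the log2 fold changes of Col4a1, Col4a2 and Col5a1 in mural-like barcodes at 1.177, 1.24 and 1.338 (from 1.23, 1.21 and 1.30). That exclusion was not run for T cell-like and macrophage-like barcodes, whose own markers the list holds. DESeq2 gave 0 macrophage-like and 1 T cell-like call. Causes of these differences were not tested.

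With 1 library left out, called collagen genes ranged from 4 to 13 in fibroblast-like barcodes, 0 to 5 within wildtype, 0 to 10 within mutant and 0 to 0 for the 3 genotype comparisons. The range was 0 to 1 in endothelial-like, 3 to 5 in glial-like, 5 to 8 in mural-like, 0 to 2 in macrophage-like and 0 to 2 in T cell-like barcodes. In the adventitial-like cluster it was 9 to 14 (of 15), 3 to 11 within wildtype and 2 to 12 within mutant. For the genotype comparisons other than mutant against wildtype after DSS it was 0 to 0. Mutant against wildtype after DSS gave calls only without DSS S203AKI library 1, a fit with 1 mutant DSS library that is not read. The range of called collagen genes in further clusters follows. It was 8 to 13 in its leukocyte-mixed counterpart, 1 to 7 in the telocyte-like, 4 to 12 in the contractile and 2 to 9 in the Adamdec1 clusters, and 8 to 12 for the difference between clusters. Without DSS WT library 2, Mrc1 (-1.019) and Lair1 (-0.5118) in fibroblast-like barcodes reversed, and their highest values without 1 library were 5.389 and 3.06. No called collagen gene reversed under library-size scaling, which moved the median of all genes to 0.161 in mural-like barcodes (7 calls) and 0.155 in macrophage-like barcodes, where Col14a1 lost its call and 1 other gene was called higher.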
